A study of Mus musculus with 6 samples.

Results

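The genes described here encode the voltage-gated sodium channels, the voltage-gated calcium channels and the HCN channels of mouse cerebral cortex. Members were all probe sets that the platform's annotation gives exactly 1 gene symbol, where that symbol starts with Cacna or Cacnb, has the form Scn, a number, and a or b, or is Hcn followed by a number. The rule took 72 probe sets of 29 genes out of 45037 probe sets besides controls. Total RNA of cerebral cortex was hybridised to 6 Affymetrix mouse arrays, 3 labelled wild type and 3 labelled as carrying a double knockout of Egr1 and Egr3. Egr1 and Egr3 encode activity-induced zinc finger transcription factors, and the comparison asks which transcripts differ when both are targeted. The strain, sex and age of the mice, the knockout alleles, any pooling of animals and any protocol or treatment are not given in the sources used here. The labels do not say whether a group's arrays are of different mice, so each p-value speaks for the spread among these arrays, which may be technical. The title of double knockout replicate 1 names no genotype, unlike its description and unlike the titles of double knockout replicates 2 and 3.

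Voltage-gated sodium channels carry the rising phase of the action potential. Each has a pore-forming alpha subunit (the Scn genes ending in a) and smaller beta subunits (those ending in b), which set gating, surface level and adhesion. Voltage-gated calcium channels couple depolarisation to transmitter release, dendritic calcium entry and gene expression. Their pore is an alpha1 subunit (Cacna1 genes), which a cytoplasmic beta subunit (Cacnb genes) and an extracellular alpha2delta subunit (Cacna2d genes) help to reach the membrane. HCN channels open on hyperpolarisation and carry the pacemaker and resting cation current of neurons.

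Values are linear probe set signals that the authors had already summarised and scaled to equal brightness, and array medians lay between 36.2 and 39.5. Differences are given as log2(signal + 16), double knockout label minus wild type, a scale that understates the change of dim probe sets. A probe set was tested with limma where its mean log2 signal exceeded the median probe set's, and was called at an adjusted p under 0.05 over all 22518 tested. The brighter Egr3 probe set read 1189, 2670 and 924 in wild type, against 339, 369.9 and 507 on the knockout-labelled arrays (named so here for their label), and passed (log2 -1.80, SE 0.32, limma adjusted p = 0.0361). The Egr1 probe set read higher, not lower, in all 3 knockout-labelled arrays (log2 0.67, SE 0.17, limma adjusted p = 0.108). The part of either gene that was deleted is not given in the sources used here, so a probe set may lie outside it and check nothing. Of 2 arrays that stood apart, wild type replicate 1 had dim spiked-in control RNAs (geometric mean 342, against 739.6 to 1088 on the others), and double knockout replicate 2 held an Xist signal of 3140, the mark of female RNA, against at most 42.5 on the others. The brighter probe set of Eif2s3y, a Y chromosome gene, read 0.630 on that array, against 383 to 609 on the others. Double knockout replicate 2 is thus not of the same animals as replicates 1 and 3, and sex was not balanced between the groups. All 6 cortical neuron markers with a probe set passed the filter, Snap25, Rbfox3 and Slc17a7 among them. So did 7 of 8 striatum and 7 of 8 thalamus markers with a probe set, so passing it does not check the tissue label. Choroid plexus genes stood high in wild type replicate 3 and double knockout replicate 1 (summed signals of 11131 and 4850, against 146 to 478 in the other arrays).

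One channel gene changed in the knockout-labelled arrays: Scn4b, which encodes the sodium channel beta4 subunit, fell. The pore-forming subunits of the sodium and calcium channels did not pass the test in any direction, and nor did the calcium channel auxiliary subunits or the HCN channels. Of the 72 probe sets 48, of 22 genes, were bright enough to be tested, and 1 of these 48 (2.08%) passed, against a background of 1.02% of all tested probe sets. By direction the background was 0.426% for higher and 0.591% for lower calls. With a single call the members' count does not stand apart from that background. The median log2 difference was 0.04 over the 48 and 0.01 over all tested probe sets, and 6 of the 48 had an unadjusted limma p under 0.05 (12.5%), against 16.6% of all tested.

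A probe set separated the groups for 8 channel genes, of which 6 have a promoter window and 3 an EGR motif in it. For Cacna1a, Cacna2d4, Scn7a and Scn9a it was a probe set under the filter. The groups were apart for 12.5% of tested channel probe sets, against 22.3% of all tested. Of 24 channel probe sets under the filter 3 were apart and lower and 2 apart and higher. That is a larger share than the 11.9% of all under it in either direction, but on few probe sets of low signal. The 8 genes are a choice for display. The windows of 4 are shown, chosen after their values and motifs were seen: the gene that was called and the 3 with a motif. They are Scn4b, which passed the test, Cacna2d2 and Cacna2d1, which encode alpha2delta subunits, and Scn7a, which was too dim to be tested. The sequences were read from RefSeq sequences of GRCm38.p6, run 5′ to 3′ on the strand of the gene and span 250 bases before to 50 bases after the start. The Scn4b window lies on the plus strand at chr9:45138374-45138673, that of Cacna2d2 on the plus strand at chr9:107399630-107399929, that of Cacna2d1 on the plus strand at chr5:15934441-15934740 and that of Scn7a on the minus strand at chr2:66784861-66785160. Capitals mark matches, on either strand, to the motif GCGNGGGCG with T or G at N, which EGR proteins bind, or to the GC box GGGCGG. A match is a description of the letters only.
Scn4b: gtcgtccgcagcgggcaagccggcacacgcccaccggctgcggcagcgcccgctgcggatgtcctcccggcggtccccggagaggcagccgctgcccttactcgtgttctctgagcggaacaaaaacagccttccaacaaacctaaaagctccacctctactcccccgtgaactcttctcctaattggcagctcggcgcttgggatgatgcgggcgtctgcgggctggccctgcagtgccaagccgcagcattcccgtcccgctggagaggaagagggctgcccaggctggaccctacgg
Cacna2d2: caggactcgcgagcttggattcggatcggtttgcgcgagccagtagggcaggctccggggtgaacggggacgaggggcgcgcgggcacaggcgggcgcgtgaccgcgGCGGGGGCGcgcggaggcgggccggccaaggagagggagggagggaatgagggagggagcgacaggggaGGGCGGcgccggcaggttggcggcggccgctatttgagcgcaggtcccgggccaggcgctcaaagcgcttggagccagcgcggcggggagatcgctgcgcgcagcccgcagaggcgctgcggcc
Cacna2d1: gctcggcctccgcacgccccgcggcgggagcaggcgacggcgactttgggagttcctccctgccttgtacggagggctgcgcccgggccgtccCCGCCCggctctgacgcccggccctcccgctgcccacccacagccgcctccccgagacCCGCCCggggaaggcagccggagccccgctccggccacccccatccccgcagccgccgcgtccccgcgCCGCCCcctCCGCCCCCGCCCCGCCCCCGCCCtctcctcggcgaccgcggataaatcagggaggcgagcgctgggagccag
Scn7a: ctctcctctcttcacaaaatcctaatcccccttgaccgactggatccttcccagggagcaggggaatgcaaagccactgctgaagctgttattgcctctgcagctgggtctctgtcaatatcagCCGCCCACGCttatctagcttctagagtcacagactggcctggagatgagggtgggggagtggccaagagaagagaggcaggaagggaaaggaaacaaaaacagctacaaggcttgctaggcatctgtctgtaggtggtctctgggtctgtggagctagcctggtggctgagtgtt

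The Scn4b window held no match to either motif, so its letters stand wholly in lower case. Of the other genes with a probe set apart, Cacnb1 has 2 windows and Scn9a 1, none with an EGR motif and not printed. Cacna1a and Cacna2d4 have no entry. Cacna2d2 held 1 EGR motif, 143 bases before the start. Cacna2d1 held 2, at 21 and 10 bases before the start within a run of GC boxes, and Scn7a held 1, at 125 bases before the start. RefSeq windows were matched for 22 of the 29 genes, in 31 windows, since some genes have several starts. An EGR motif stood in 6 of these 31 windows (19.4%), those of Cacna1b, Cacna2d1, Cacna2d2, Hcn2, Scn7a and Scn8a, against 3.47% of all 32851 windows in the table. A GC box stood in 41.9% of member windows and in 35.7% of all windows, and the median GC content was 57.3% and 52.7%. Of the 8 EGR matches in member windows 6 overlapped a GC box. The genes with a match include Cacna1b, whose 2 brightest probe sets differed by 0.17 and -0.02, and Scn8a, whose brightest differed by -0.06. The gene that passed the test has none in this window.

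Scn4b encodes a beta subunit that is known for its part in the resurgent sodium current of fast-firing neurons. Its probe set read 99.1, 149 and 76.8 in wild type replicates 1, 2 and 3, and 28.0, 29.2 and 47.8 in the knockout-labelled arrays. Every knockout-labelled array lay below every wild type array, and the highest of them, replicate 3, stood well under the lowest wild type array. The means were 108 ± 37.0 (SD, n = 3) and 35.0 ± 11.1 (SD, n = 3), a log2 change of -1.27 (SE 0.23, 95% interval -1.78 to -0.75, limma adjusted p = 0.0400), or a 2.40-fold fall on the log2(signal + 16) scale. In double knockout replicates 1 and 2 the signal was below the array median, so the size depends on the pseudocount and was -0.78 with a pseudocount of 64. In whole tissue, fewer cells that express a gene and less RNA per cell cannot be told apart.

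The direction of the Scn4b change was the same in all 16 alternatives that tested it, and its call was not. As every knockout-labelled array lay below every wild type array, no array left out and no pseudocount could have turned the direction. It did not hold once wild type replicate 1 was dropped (adjusted p = 0.0940), nor without wild type replicate 2 (0.0583) or double knockout replicate 1 (0.104), 2 (0.161) or 3 (0.0668), and held without wild type replicate 3 (0.0304). With no filter, which doubles the probe sets tested, the limma adjusted p was 0.174, with no intensity trend it was 0.0563, and with wild type replicate 1 and double knockout replicate 2 dropped together it was 0.273. Over all 16 the adjusted p ran from 0.0273 to 0.273.

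**Figure D1:**
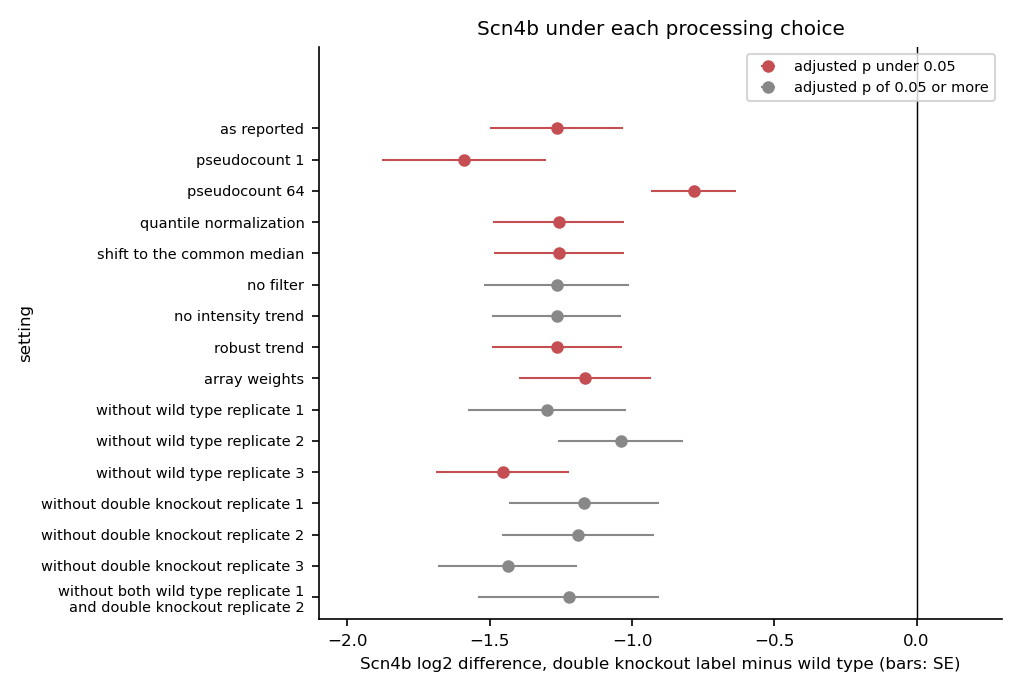
Scn4b log2 difference (double knockout label minus wild type, x axis) under the reported settings and the alternatives named on the y axis, with bars of 1 SE; red points have a limma adjusted p under 0.05 and grey points do not. All points lie below 0, from -1.59 with a pseudocount of 1 to -0.78 with a pseudocount of 64, while the call comes and goes with single arrays. The groups do not overlap, so leaving arrays out or changing the pseudocount could not turn the sign.

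Scn4b is also a known marker of striatal projection neurons, so the striatal marker list stands beside it. Of its 10 genes 8 had a probe set and 7 were tested, 2 higher and 5 lower with a median log2 difference of -0.02, and none rose or fell in limma. Their summed signal was 1359 to 2084 in wild type and 1259 to 1491 in the knockout-labelled arrays, so the groups overlapped. Drd2, which encodes a dopamine receptor of the striatum, was under the filter, and no marker of the list was at 0. Wild type replicate 2 had the highest Scn4b signal (149) and the lowest striatal sum of the wild type arrays (1359). That sum leans on Penk, given next, which was low in that array. The median deviation of the 7 tested markers from the wild type mean was also lowest there (-0.24, against -0.06 and 0.27 in replicates 1 and 3). Drd1 and Pde10a went the other way and read highest of the wild type arrays in replicate 2. Penk, the proenkephalin gene and the list's lowest difference, read 724, 201 and 703 in wild type, against 285, 178 and 185 on the knockout-labelled arrays (log2 -1.10, limma adjusted p = 0.215). Next to it among the tested markers stood Rgs9, a signalling regulator of striatum, at -0.50 (limma adjusted p = 0.228). The highest was Drd1, the other dopamine receptor, at 0.41 (limma adjusted p = 0.391). Pvalb, which marks fast-spiking interneurons, read 672, 895 and 478 against 620, 505 and 662 (log2 -0.16, limma adjusted p = 0.743). The part of either cell type in the Scn4b change was not tested.

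Scn2b, which encodes the beta2 subunit, is the neighbouring protein-coding gene of Scn4b on chromosome 9. Its brightest probe set read 1380, 1224 and 1497 in wild type, against 1508, 1158 and 1289 on the knockout-labelled arrays, and the groups overlapped throughout. The log2 difference was -0.06 (SE 0.12, 95% interval -0.33 to 0.22, limma adjusted p = 0.860), an interval that lies wholly above that of Scn4b. A dimmer Scn2b probe set differed by 0.33 (limma adjusted p = 0.537), with 1 low wild type array, replicate 3, at 330.4 against 629 to 751 on the other arrays. Scn3b, which encodes the beta3 subunit, differed by -0.21 on each of its 2 probe sets. Its brighter one read 955, 550.0 and 1187 in wild type, against 693, 767 and 754 on the knockout-labelled arrays, so the wild type arrays spanned the other group on either side.

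**Figure D2:**
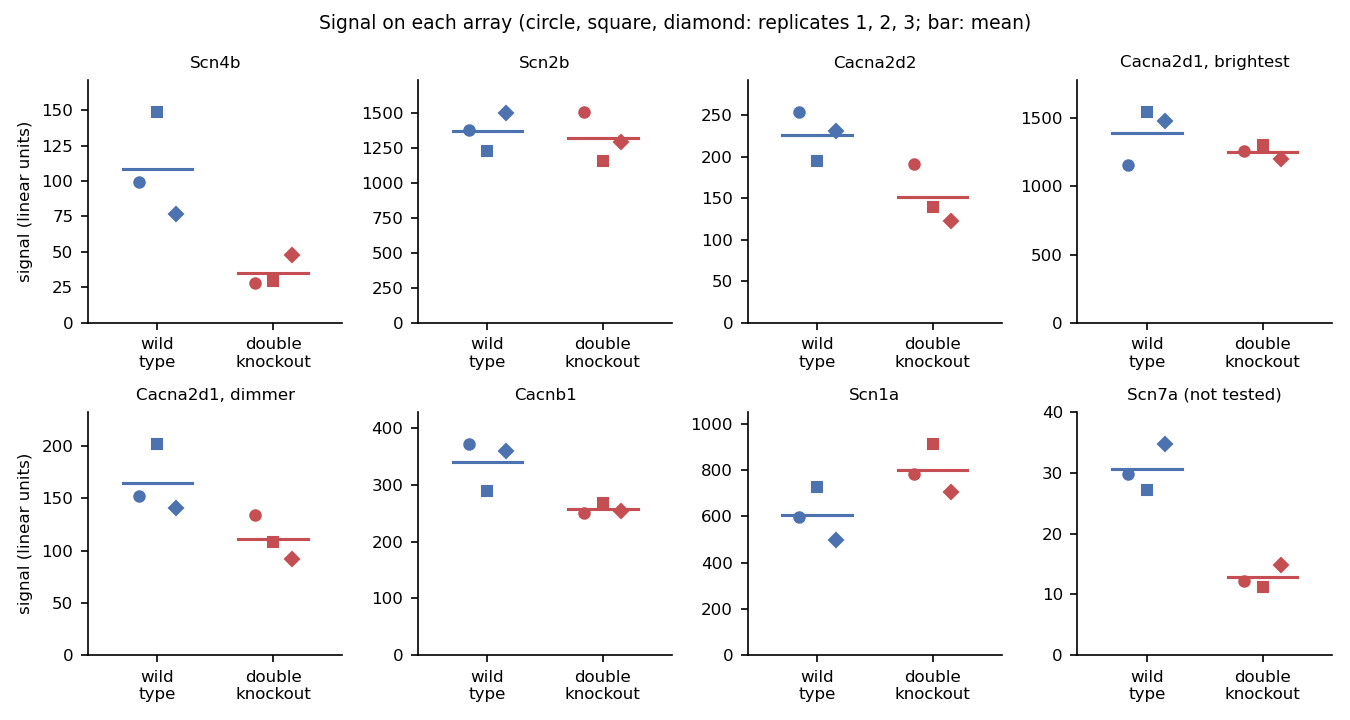
Signal (linear units, y axis from 0) on each array for 8 channel probe sets, by group on the x axis; circles, squares and diamonds are replicates 1, 2 and 3 and bars are group means. Scn4b in the knockout-labelled arrays lies at 28.0 to 47.8 under wild type values of 76.8 to 149, while the neighbouring gene Scn2b overlaps at 1158 to 1508 and 1224 to 1497.

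The sodium channel alpha subunits, the pores of these channels, gave no call. Of 24 probe sets 12 were tested, of which 9 differed upward and 3 downward, and their median log2 difference was 0.12, against 0.01 for all tested probe sets. In limma 0 passed and 1 had an unadjusted p under 0.05. All 12 intervals lay between -1 and 1, and 8 lay between -0.5 and 0.5. Scn1a, the alpha subunit most tied to inhibitory interneurons, read 598, 728 and 499 in wild type, against 786, 914 and 706 on the knockout-labelled arrays on its brightest probe set. Wild type replicate 2 lay above double knockout replicate 3, so the groups overlapped (log2 0.40, SE 0.15, 95% interval 0.07 to 0.73, limma adjusted p = 0.221). The other 2 Scn1a probe sets differed by 0.33 and 0.11.

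Scn2a, the alpha subunit of the axon initial segment of young and excitatory neurons, was higher on all 4 tested probe sets, by 0.05 to 0.35. The brightest read 2130, 2378 and 2577 in wild type, against 2754, 2765 and 2516 on the knockout-labelled arrays (log2 0.18, SE 0.11, limma adjusted p = 0.421). The dimmest read 49.6, 55.2 and 42.4 against 61.7, 89.3 and 52.5 (log2 0.35, SE 0.19, limma adjusted p = 0.394), and double knockout replicate 3 lay within the wild type range. Scn8a, the alpha subunit of mature nodes and initial segments, was split, with differences of -0.21 to 0.15 on 4 tested probe sets. Its brightest read 1195, 1527 and 1357 against 1260, 1385 and 1264 (log2 -0.06, limma adjusted p = 0.846). Scn3a, an alpha subunit of immature neurons, differed by 0.07 on its tested probe set. Probe sets of 1 gene share their transcript and are not independent.

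Neuronal markers are given beside the sodium channel values. Of 8 cortical neuron markers 6 had a probe set, all 6 were tested, and 5 were higher in the knockout-labelled arrays with 0 past the threshold in limma and a median log2 difference of 0.25. The other, Neurod6, a transcription factor of cortical excitatory neurons, had the smallest unadjusted p of the list and read 436, 524 and 369 in wild type, against 317, 299.6 and 342 on the knockout-labelled arrays, with no overlap (log2 -0.44, SE 0.13, limma adjusted p = 0.154). The summed signal of all 6, most of it from Snap25 and Syt1, was 14122 to 17624 in wild type and 18993 to 20010 in the knockout-labelled arrays, which did not overlap, and no marker was at 0. Slc17a7, the vesicular glutamate transporter of cortical excitatory neurons, read 870.4, 1775 and 789 in wild type, against 1494, 1775 and 1709 on the knockout-labelled arrays. Wild type replicate 2 was again the array nearest to the other group. Of the 13 marker lists the sums were apart for 2 that were higher on the knockout-labelled arrays (cortical neuron and oligodendrocyte) and 5 that were lower (microglia, astrocyte, endothelium and pericyte, hippocampus and muscle). Of all tested probe sets 22.3% stood apart, and no such share was computed for sums, which lean on their brightest genes. Only 2 of 6 muscle and 3 of 6 hippocampus genes were tested. All 5 microglia markers differed downward (median log2 -0.47, 0 past the threshold in limma), with sums of 2440 to 2861 in wild type and 1901 to 2363 in the other group. The oligodendrocyte sums were 15252 to 17672 and 18283 to 20883, with 4 of 5 markers higher and a median of 0.16. The part of these markers in the channel values was not tested.

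The calcium channel alpha1 subunits gave no call either. Of 19 probe sets 14 were tested, 10 higher and 4 lower, with a median log2 difference of 0.06 and a range of -0.12 to 0.32. In limma 0 passed and 0 had an unadjusted p under 0.05. All 14 intervals lay between -1 and 1, and 10 between -0.5 and 0.5. Cacna1a, the pore of the P/Q-type channel of nerve terminals, read 230.4, 199 and 119 in wild type, against 196, 288 and 199.7 on the knockout-labelled arrays on its probe set with the largest difference (log2 0.32, SE 0.22, limma adjusted p = 0.511). Double knockout replicate 2 was high and wild type replicate 3 low, while the other arrays overlapped. The other 2 tested Cacna1a probe sets differed by 0.0026 and -0.05.

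Cacna1b, the N-type pore, read 450.3, 432 and 516 in wild type, against 529, 572 and 476 on the knockout-labelled arrays on 1 probe set (log2 0.17, limma adjusted p = 0.492). A dimmer probe set read 116, 72.9 and 81.0 against 93.7, 120.2 and 122 (log2 0.29, limma adjusted p = 0.460), and the remaining 2 differed by 0.03 and -0.02. Cacna1h, a T-type pore, read 179.7, 144 and 233 against 178, 273 and 242 (log2 0.30, SE 0.19, limma adjusted p = 0.469). In each of these probe sets at least 1 knockout-labelled array lay within the wild type range. Cacna1g, another T-type pore, differed by 0.06, Cacna1e, the R-type pore, by -0.12, and the L-type pores Cacna1c and Cacna1d by 0.06 to 0.20 and -0.03 to 0.08.

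The alpha2delta subunits, the binding site of gabapentin in the case of Cacna2d1 and Cacna2d2, gave the lowest class median, -0.25 over 6 tested of 12 probe sets. None passed in limma, 2 had an unadjusted p under 0.05, 5 were lower and 1 higher, and all 6 intervals lay between -1 and 1. Cacna2d2 read 255, 196 and 231 in wild type, against 192, 139 and 122 on the knockout-labelled arrays. The groups did not overlap, but wild type replicate 2 and double knockout replicate 1 nearly met (log2 -0.55, SE 0.17, 95% interval -0.93 to -0.18, limma adjusted p = 0.154). Its 2 other probe sets were under the filter and overlapped between the groups.

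Cacna2d1 was lower on all 4 tested probe sets, by -0.50 to -0.14, and the size went with the probe set. One dimmer probe set read 153, 202 and 141 in wild type, against 134, 108 and 92.2 on the knockout-labelled arrays, with no overlap (log2 -0.50, SE 0.17, limma adjusted p = 0.195). The brightest read 1158, 1548 and 1478 against 1259, 1305 and 1204, and wild type replicate 1 lay under all 3 arrays of the other group (log2 -0.14, SE 0.12, limma adjusted p = 0.613). The third read 218, 210.4 and 280.2 against 185, 205 and 208 (log2 -0.22, limma adjusted p = 0.448), again apart but by little. Cacna2d3, of the same family, differed in the other direction without a call. It read 699, 877 and 765 in wild type, against 829, 1146 and 902 on the knockout-labelled arrays (log2 0.28, SE 0.14, 95% interval -0.02 to 0.59, limma adjusted p = 0.335). Double knockout replicate 1 lay within the wild type range.

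Of the calcium channel beta subunits, which traffic the pore and set its inactivation, all 9 probe sets were tested. In limma 0 passed and 2 had an unadjusted p under 0.05, with 6 higher, 3 lower and a median of 0.06. All 3 lower ones were of Cacnb1. Its brightest probe set read 372, 289 and 359.7 in wild type, against 249.5, 267 and 255 on the knockout-labelled arrays, with no overlap (log2 -0.38, SE 0.12, 95% interval -0.65 to -0.10, limma adjusted p = 0.177). A second read 134, 179 and 149 against 117, 117 and 129, also apart (log2 -0.30, SE 0.14, limma adjusted p = 0.312). On another, double knockout replicate 2 read 107, within the wild type range of 102 to 120.3, and the other 2 arrays read 71.9 and 65.8 (log2 -0.40, SE 0.18, limma adjusted p = 0.296). The dimmest Cacnb1 probe set, near the array median, differed by 0.02.

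Cacnb4, the beta subunit that partners P/Q-type pores in many neurons, was higher on all 3 probe sets, by 0.06 to 0.25. The brightest read 1058, 1668 and 1214 in wild type, against 1604, 1612 and 1389 on the knockout-labelled arrays (log2 0.25, SE 0.16, limma adjusted p = 0.465). Wild type replicate 2 was the highest of all 6 arrays on each of the 3 probe sets, so the groups overlapped there by that array. Cacnb2 differed by 0.18 and 0.10 on its 2 probe sets. Its brighter one read 165, 128 and 213 against 151, 195 and 191.

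The HCN channels had 2 probe sets, both tested and both lower, and in limma 0 passed and 0 had an unadjusted p under 0.05. Hcn2, abundant in thalamus and cortex, read 228, 188 and 132 in wild type, against 173, 151 and 143 on the knockout-labelled arrays. The wild type arrays enclosed the others (log2 -0.18, SE 0.18, 95% interval -0.58 to 0.22, limma adjusted p = 0.662). Hcn3 read 68.5, 49.0 and 72.2 against 58.7, 36.4 and 54.2 (log2 -0.27, SE 0.19, 95% interval -0.70 to 0.16, limma adjusted p = 0.518), and wild type replicate 2 lay within the range of the other group.

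**Figure D3:**
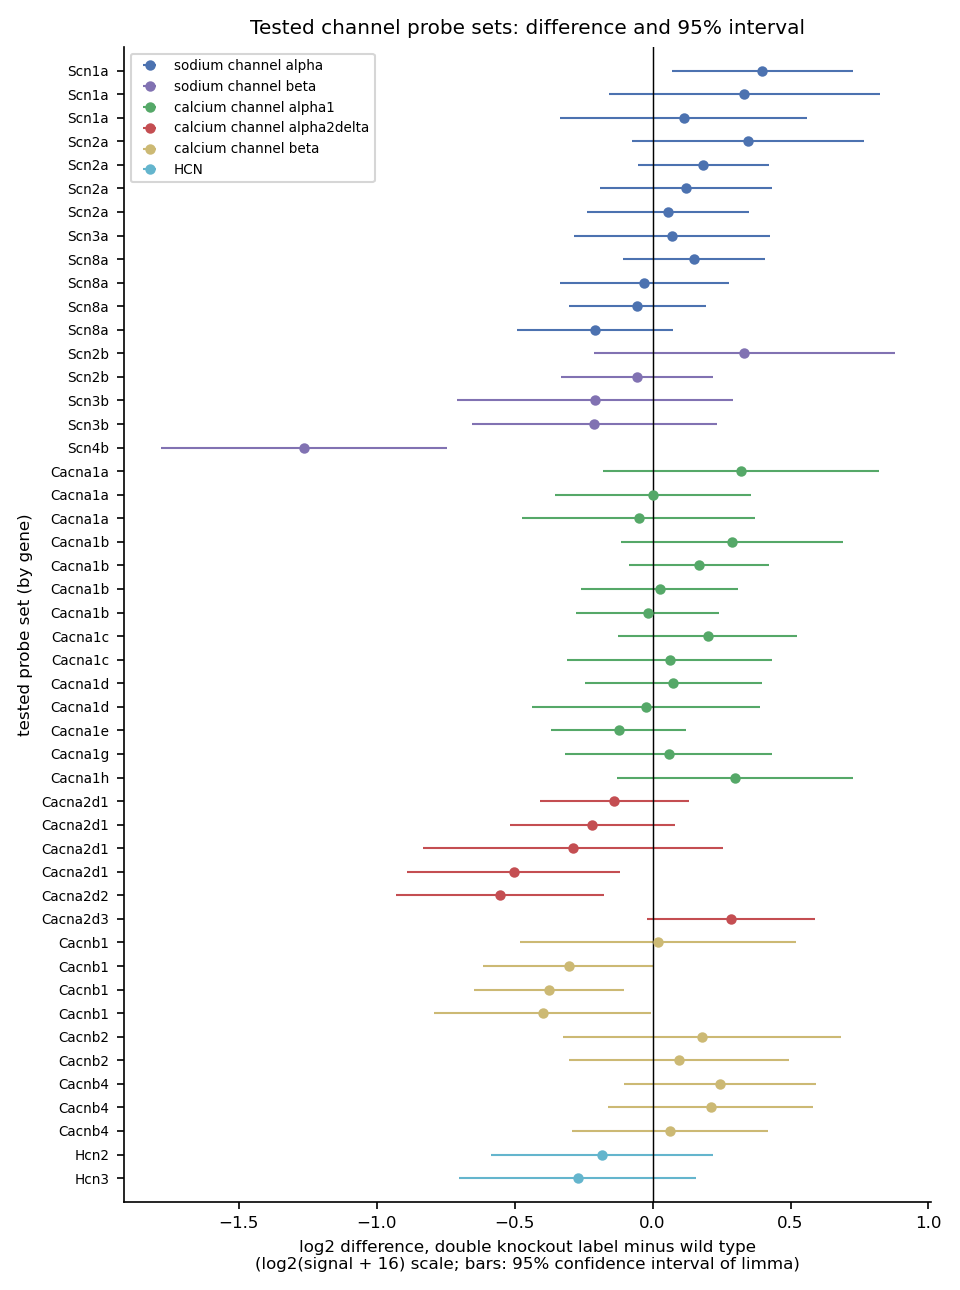
Log2 difference (double knockout label minus wild type, x axis) and its 95% limma confidence interval for each of the 48 tested channel probe sets (y axis, by gene), coloured by class. Scn4b stands apart at -1.27, and the next in size is Cacna2d2 at -0.55.

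Most of these differences were smaller than the spread between wild type arrays. The range over the 3 wild type arrays had a median of 0.47 on the log2 scale, against 0.27 over the knockout-labelled arrays, and was the wider of the pair for 37 of the 48 probe sets. The median absolute difference between the groups was 0.18, against 0.15 over all tested probe sets. An absolute difference of at least 0.3 was seen in 11 of the 48 (22.9%), against 21.4% of all tested. The difference exceeded the range within each group for 3 of the 48. The ranges and this count were computed for channel probe sets only, so they show nothing particular to the channels. The groups did not overlap for 6 (12.5%), against 22.3% of all tested probe sets. These 6, of Scn4b, Cacna2d2, Cacna2d1, and Cacnb1, were all lower in the knockout-labelled arrays, and the background for that direction was 10.7%.

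Wild type replicate 2 was the highest wild type array for 19 probe sets and the lowest for another 19, against 13 and 13 for replicate 1 and 16 and 16 for replicate 3. It was high for Scn1a, Scn8a and Cacnb4 and low for Scn3b, Cacnb2 and Cacna1c. By class, its median deviation from the wild type mean was 0.15 for sodium channel alpha subunits and -0.20 for calcium channel alpha1 subunits. Those of wild type replicates 1 and 3 were -0.07 and -0.07 for the former and 0.10 and 0.11 for the latter. In double knockout replicates 1, 2 and 3 the alpha1 class stood at -0.01, 0.25 and 0.06 and the alpha2delta class at -0.18, -0.30 and -0.33.

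**Figure D4:**
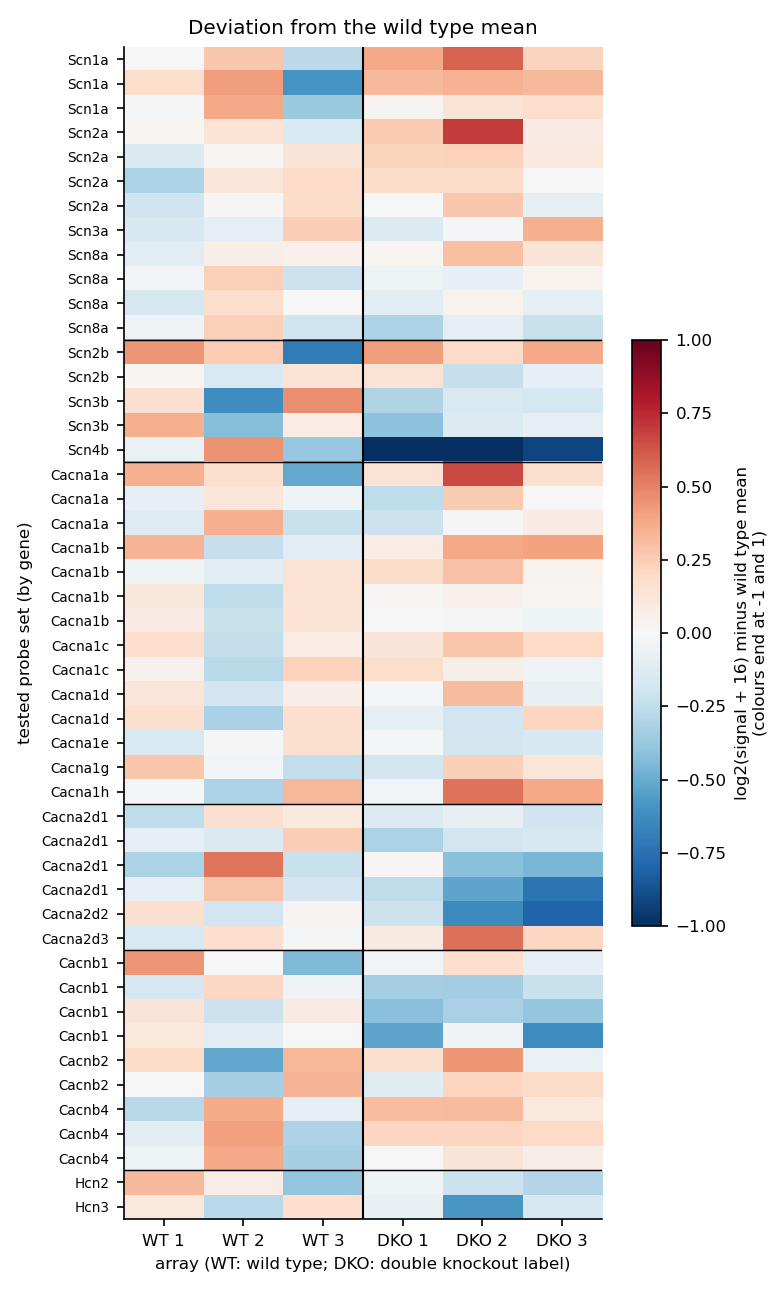
Log2(signal + 16) minus the wild type mean for the 48 tested channel probe sets (rows, by gene; lines part the classes) on each array (columns), from blue for lower to red for higher, with colours ending at -1 and 1. Scn4b is the only row at or near the blue end on all 3 knockout-labelled arrays, while wild type replicate 2 is red for Scn1a and Cacnb4 and blue for Scn3b and Cacnb2.

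The other 24 member probe sets were under the filter, with means over all arrays of 0.891 to 35.6. They include all 15 probe sets of 7 genes: Cacna1f, the L-type pore of the retina, Cacna1s, that of skeletal muscle, Cacna2d4, the peripheral sodium channels Scn9a, Scn10a and Scn11a, and Scn7a. The brightest 2 were a probe set of Cacna2d1, at 39.1, 56.8 and 34.1 in wild type, against 28.8, 34.5 and 20.2 on the knockout-labelled arrays, and one of Scn2b, at 35.3, 26.4 and 25.4 against 21.6, 33.2 and 24.8. The groups overlapped for 19 of the 24. They stood apart for 3 lower probe sets, 2 of Scn7a and 1 of Scn9a with all signals under 3, and for 2 higher ones, of Cacna1a and Cacna2d4. Among all probe sets under the filter 11.9% stood apart, and 5.29% with the knockout-labelled arrays lower.

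Scn7a encodes a sodium-sensing relative of the sodium channels that is known from glia and from organs that watch body sodium. One probe set read 29.9, 27.1 and 34.8 in wild type, against 12.3, 11.3 and 14.9 on the knockout-labelled arrays. A second read 26.2, 19.7 and 26.2 against 9.61, 13.9 and 12.8. Both separated the groups, at signals below the array medians on all 6 arrays. The third overlapped, at 0.890 to 12.3. With no filter, the limma adjusted p was 0.214 and 0.328 for the first pair (log2 -0.69, SE 0.16, and -0.51, SE 0.16, in that fit). Astrocyte and endothelial markers stood beside these values. Of 5 astrocyte markers, all tested, 1 (Aqp4) fell and 0 rose in limma, and 4 differed downward. The other, Slc1a3, read 1050, 1071 and 1014 in wild type, against 1220, 1408 and 1491 on the knockout-labelled arrays, with no overlap (log2 0.38, limma adjusted p = 0.118). The summed signal of all 5 was 5494 to 5848 in wild type, against 4891 to 5326 on the knockout-labelled arrays. Of 5 endothelial and pericyte markers, all tested, 0 passed and 4 differed downward, with sums over all 5 of 1712 to 2041 and 1287 to 1531. The other, Flt1, read 74.8, 74.5 and 73.3 in wild type, against 109, 97.1 and 83.1 on the knockout-labelled arrays, also with no overlap (log2 0.31, limma adjusted p = 0.316). Neither sum overlapped between the groups, no marker of these lists was at 0, and their part in the Scn7a values was not tested. All tested probe sets of Scn1a, Scn2a and Scn3a, which lie with Scn7a in the sodium channel cluster of chromosome 2, overlapped between the groups.

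Of the 29 channel genes 2, Cacna1d and Cacna2d3, lie on chromosome 14, which holds Egr3, and 0 lie on the chromosome of Egr1. Neither of these 2 passed the test.

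Proteins that bind, anchor or regulate these channels were read from a list of 37 genes. Of these 33 had a probe set, and 69 of their 86 probe sets were tested. In limma 2 fell, 0 rose and 67 did not pass, or 2.90% against the background of 1.02%, and the median log2 difference was -0.03. The list was chosen with earlier results of these data known, so its share of calls cannot be weighed against that background. Stac2, an adaptor of L-type calcium channels, fell. It read 177, 196 and 115 in wild type, against 58.8, 45.2 and 63.9 on the knockout-labelled arrays, with every array of the latter below every wild type array (log2 -1.29, SE 0.20, limma adjusted p = 0.0191). The call was lost without wild type replicate 1 (0.0773), double knockout replicate 2 (0.0963) or double knockout replicate 3 (0.0619), with no filter (0.129) and with wild type replicate 1 and double knockout replicate 2 dropped together (0.244), while the range over its alternatives was 0.00843 to 0.244.

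Nedd4l, a ubiquitin ligase that removes sodium channels from the membrane, fell on 1 of its 6 tested probe sets. That one read 503, 626 and 598 in wild type, against 399, 328 and 384 on the knockout-labelled arrays, with no overlap (log2 -0.61, SE 0.12, limma adjusted p = 0.0497). The remaining 5 differed by -0.44 to -0.08, 2 of them without overlap. The Nedd4l call sat at the threshold and was lost without any 1 of the 6 arrays, where the adjusted p was 0.0590, 0.0762 and 0.0982 for wild type replicates 1, 2 and 3 and 0.0871, 0.194 and 0.165 for double knockout replicates 1, 2 and 3, in a range of 0.0395 to 0.194 over the alternatives. Ank3, which encodes ankyrin-G, the anchor of sodium channels at the axon initial segment, read 3036, 3154 and 3638 against 4147, 4451 and 4231 on its brightest probe set. The groups were apart, and the difference did not pass (log2 0.39, SE 0.11, limma adjusted p = 0.125).

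**Figure D5:**
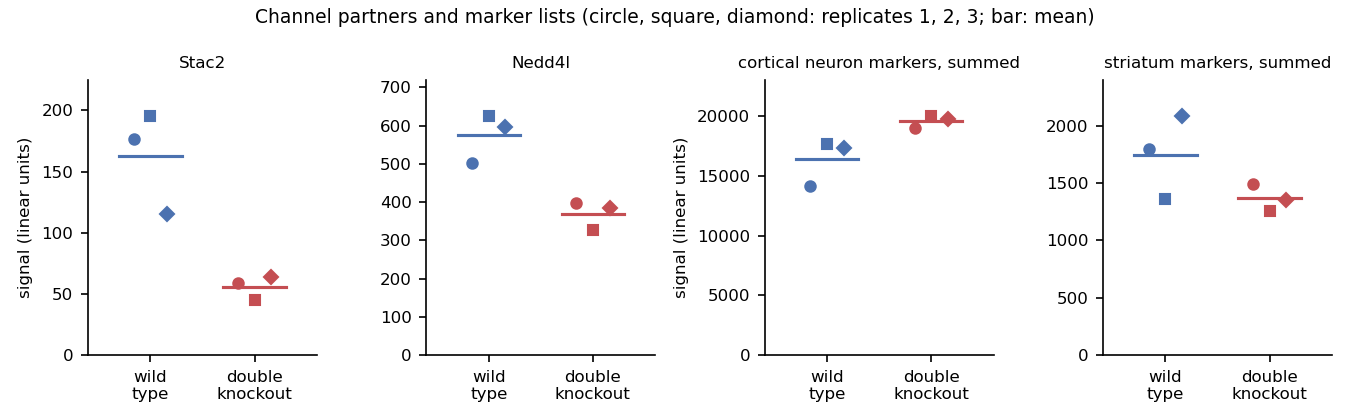
Signal (linear units, y axis from 0) of the channel partners Stac2 and Nedd4l and summed signal of the cortical neuron and striatum marker lists on each array, by group on the x axis; circles, squares and diamonds are replicates 1, 2 and 3 and bars are group means. Stac2 and Nedd4l are lower on all 3 knockout-labelled arrays, the cortical neuron sum is higher on all 3, and the striatum sums overlap.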

How the data were processed

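Probe set signals of 6 arrays were used as deposited. The authors had summarised and scaled these intensity values on a linear scale, as the values show (a mean of 150.0 on each array after trimming 2% at each end); the software is not given in the sources used here. All columns were used, and 0 pairs of arrays were identical. Annotation gave 1 symbol for 34945 of 45037 probe sets, several for 932 and none for 9160; only the first were named, with symbols updated by gene number in RefSeq GRCm38.p6. No probe set with several symbols named a channel gene.

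Values below 1 (4.35% of all) were raised to 1, and log2(signal + 16) entered a fit with limma 3.58.1 in R 4.3.3 (group as the only term, intensity trend, two-sided, Benjamini-Hochberg over all 22518 tested probe sets). This step was tested on simulated data. Exact permutation of 3 against 3 arrays cannot go below p = 0.1 and was not used. Members and lists were chosen with earlier results of these data known. Full values were given for members past the threshold, the 3 with the smallest p in each class, those with groups apart and an absolute log2 difference of at least 0.3, and genes whose probe sets differ in sign with 1 at or past 0.3; Nedd4l, Stac2 and the Egr genes followed the same rule for partners and labels. Scn7a, Cacna1e, Cacna1g, Cacna1c, Cacna1d, Cacnb2, Cacnb4, Scn3a, Scn8a, Ank3, Penk, Rgs9, Drd1, Drd2, Pvalb, Slc17a7 and Neurod6 were described beyond it, after their values were seen. The alternatives were, in turn, a pseudocount of 1 or 64, quantile normalization, one median for all arrays, no filter, a filter at the 75% quantile, no trend, a robust trend, array weights, each array left out, 2 arrays left out and the replicate number as a block.

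Of the other marker lists, thalamus, cerebellum, choroid plexus, meninges and muscle held 0 calls, interneuron 1 rise (Vip), and hippocampus 1 fall (Zbtb20). Plots used matplotlib 3.10.9 (Python 3.11.15).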

Additional observations from a re-analysis of the deposited data

How the results depend on the processing

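The count of 1 channel probe set past the threshold held with either other pseudocount, quantile normalization, one median for all arrays, a robust trend and array weights. It was 0 with no filter, with the 75% filter (where Scn4b was not tested), with no intensity trend and with wild type replicate 1 and double knockout replicate 2 both dropped, where limma gave an unadjusted p under 0.05 for 9, 3, 7 and 3 channel probe sets. With 1 array left out it was 0 to 1. The count of 2 partner probe sets became 1 with a pseudocount of 1, quantile normalization, the common median, the 75% filter and no trend. It was 0 with no filter (12 at an unadjusted limma p under 0.05) and 0 without both arrays (10), and 0 to 2 with 1 array left out. Without double knockout replicate 1 the 2 were 1 higher and 1 lower, so they were not the 2 falls of the reported fit. The 229 calls over all probe sets became 10 with no filter, 131 with no trend, 12 without both arrays and 34 to 292 with 1 array left out. The members' median stayed at 0.0062 to 0.06 in all 17 alternatives.

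Of 22 channel probe sets with full values 17 kept their sign throughout. Where the groups were apart, leaving arrays out or changing the pseudocount could not turn it. One Cacna1a probe set was -0.0011 with array weights, -0.17 without both arrays and -0.13 to 0.13 with 1 array left out, and another -0.16 to 0.13. The dim Cacnb1 probe set was -0.00081 with array weights and -0.20 to 0.24 with 1 array left out. The brightest Scn2b probe set was 0.042 without wild type replicate 1 and double knockout replicate 2 and -0.16 to 0.03 with 1 array left out. The dimmer Scn2b probe set was -0.019 to 0.55 with 1 array left out (-0.019 without wild type replicate 3) and 0.62 without those 2 arrays. The causes were not tested.

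The replicate number as a block left 0 channel calls (6 at an unadjusted limma p under 0.05; Scn4b adjusted p = 0.0520), 1 partner call and 182 calls in all. Arrays of the same number did not deviate together (Pearson's r of -0.15, 0.0013 and -0.10 across probe sets, which are not independent), and not every array correlated best with its own number. Deviations from a group mean are tied to each other, so these values cannot tell whether the numbers pair the arrays. The labels do not say. Signal over background limits the 24 channel probe sets under the filter and Scn4b itself.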
